A study of Mus musculus with 4 samples.

Results

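The myosin heavy chain genes are described here: Myh3 and Myh8, the embryonic and perinatal chains, Myh1, Myh2 and Myh4, the adult fast chains, Myh7, the slow chain, and Myh9 and Myh10, the nonmuscle chains. They were taken by name as 8 of the 32285 genes in the deposited matrices. All 8 were measured by single-cell RNA sequencing of tdTomato+ cells sorted from mouse hindlimb muscle. The 4 samples were 2 control samples (Pax7CreERT2/+;Rosa26-tdTomato) and 2 α-cdKO samples (Ctnna1 fl/fl;Ctnna3 fl/fl;Pax7CreERT2/+;Rosa26-tdTomato), named control 1, control 2, α-cdKO 1 and α-cdKO 2. Both genotypes were on a C57BL/6J background, carried the Cre and the reporter, and were collected 14 days after tamoxifen at 3 to 4 months of age. Cre was driven by Pax7 and so acted in muscle stem cells (MuSCs). The floxed genes encode αE-catenin and αT-catenin, which tie cadherins to actin. The study allows that recombination was incomplete, so α-cdKO samples may hold cells that kept either gene. Each sample pooled 2 littermate mice, so the spread between samples is a spread between pools.

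Conventional myosin is a motor of paired heavy chains, each carrying light chains, and the heavy chain isoform sets how quickly it works. Developing and regenerating fibres make the embryonic and perinatal chains, and adult fibres replace them with the slow chain or the fast chains known as type IIa (Myh2), IIx (Myh1) and IIb (Myh4). Nonmuscle myosins IIA (Myh9) and IIB (Myh10) pull on actin at the cell cortex, at adhesions and in the ring that divides the cell. Myogenin, encoded by Myog, marks MuSC progeny that have begun to differentiate, and Myomaker, encoded by Mymk, is a membrane protein needed for their fusion.

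The sarcomeric genes of mouse chromosome 11 lie side by side on the plus strand in the order Myh3, Myh2, Myh1, Myh4 and Myh8. In GRCm38 with the GENCODE M21 annotation they span 11:67078300-67102291, 11:67171027-67197517, 11:67200052-67224575, 11:67238029-67260446 and 11:67277124-67308634. Myh10 lies further along the same chromosome at 11:68691559-68816632 on the plus strand. Myh7 lies at 14:54970684-54994626 and Myh9 at 15:77760587-77842175, both on the minus strand.

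Promoters were compared because neighbouring genes of the cluster had such different levels. The 250 bases before each RefSeq start (GRCm38.p6) are shown 5′ to 3′ for the embryonic, perinatal and fast genes and for Myh9. Capitals mark CANNTG (the E-box read by MyoD and myogenin), TATAAA, and the run TTCTAATTATATCC.
Myh3, chr11:67078050-67078299: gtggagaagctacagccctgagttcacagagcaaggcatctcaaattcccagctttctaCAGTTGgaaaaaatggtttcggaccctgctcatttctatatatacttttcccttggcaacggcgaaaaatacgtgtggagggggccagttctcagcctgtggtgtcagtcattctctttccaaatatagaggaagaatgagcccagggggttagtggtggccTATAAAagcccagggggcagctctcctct
Myh8, chr11:67276874-67277123: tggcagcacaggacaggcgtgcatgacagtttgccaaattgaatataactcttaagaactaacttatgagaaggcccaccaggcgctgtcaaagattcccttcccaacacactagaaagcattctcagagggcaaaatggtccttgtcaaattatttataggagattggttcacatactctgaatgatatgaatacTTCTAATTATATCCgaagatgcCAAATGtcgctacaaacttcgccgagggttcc
Myh2, chr11:67170777-67171026: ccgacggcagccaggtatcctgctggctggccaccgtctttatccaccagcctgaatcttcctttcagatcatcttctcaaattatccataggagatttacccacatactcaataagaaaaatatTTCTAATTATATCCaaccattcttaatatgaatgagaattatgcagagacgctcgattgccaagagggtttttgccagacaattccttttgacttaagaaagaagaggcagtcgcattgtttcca
Myh1, chr11:67199852-67200101: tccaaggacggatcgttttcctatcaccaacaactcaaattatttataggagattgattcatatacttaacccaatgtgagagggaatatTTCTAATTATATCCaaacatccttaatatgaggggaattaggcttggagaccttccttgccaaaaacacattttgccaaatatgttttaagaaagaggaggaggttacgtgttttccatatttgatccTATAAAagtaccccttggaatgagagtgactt
Myh4, chr11:67237562-67237811: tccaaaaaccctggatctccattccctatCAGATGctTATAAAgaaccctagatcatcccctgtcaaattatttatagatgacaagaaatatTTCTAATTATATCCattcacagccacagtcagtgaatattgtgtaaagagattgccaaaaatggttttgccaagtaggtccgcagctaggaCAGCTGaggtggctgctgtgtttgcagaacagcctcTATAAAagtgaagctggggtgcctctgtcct
Myh9, chr15:77842176-77842425: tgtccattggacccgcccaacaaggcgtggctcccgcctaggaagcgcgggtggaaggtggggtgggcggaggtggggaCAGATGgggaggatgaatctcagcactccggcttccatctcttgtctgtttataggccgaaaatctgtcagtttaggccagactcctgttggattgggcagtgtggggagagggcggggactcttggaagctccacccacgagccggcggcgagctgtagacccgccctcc
The 14-base run TTCTAATTATATCC stood upstream of Myh8, Myh2, Myh1 and Myh4 and, on both strands, in no other of the 32851 mouse promoters searched. It was noticed after the sequences were read. Myh3, which neighbours the same cluster, did not hold it. TATAAA stood before Myh3, Myh1 and Myh4, and in 7.59% of all promoters. CANNTG stood before Myh3, Myh8, Myh4, Myh7, Myh9 and Myh10, and in 66.2% of all promoters. A match of letters describes the sequence and not a bound site.

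The 4 samples held 46099310 to 74921651 UMIs in all, and 28790 of 31254 barcodes were kept. A kept barcode had 1000 UMIs or more, 400 genes or more and a mitochondrial share below 15%. Median depth per kept cell was 6452.5 to 8075 UMIs. Cells were classed without any of the 8 genes. There were 26402 MuSCs, 861 Myog-positive cells, 1209 mature-muscle barcodes and 318 non-myogenic cells. Myog-positive cells held at least 1 Myog UMI, and 455 of them also held a Mymk UMI. Mature-muscle barcodes had at least 5% of their UMIs on a list of 16 fibre genes, with a median of 24.4% against 0.023% in MuSCs. Many genes of that list are known from fast fibres, so the gate bears on how many slow fibre barcodes were kept. Of the mature-muscle barcodes, 952 held under 0.5% mitochondrial UMIs. They are called barcodes because a mature fibre is far larger than a droplet. They were unevenly spread, with 115 in control 1, 768 in control 2, 258 in α-cdKO 1 and 68 in α-cdKO 2. MuSCs averaged 83.0 CPM (UMIs per 1000000 UMIs of the class) of Pax7, 277 of Myf5 and 583 of Myod1. Myog-positive cells averaged 1675 CPM of Myog, and the defining endothelial gene Pecam1 stood at 4.78 CPM in MuSCs and 5.93 CPM in Myog-positive cells. Ctnna1 in MuSCs was 91.5 and 76.3 CPM in controls and 80.4 and 76.3 CPM in α-cdKO samples. Which exons were deleted is not given in the sources used here, so 3′ tags do not check the deletion. Ctnna3 gave 1 to 7 UMIs per sample. The samples shared 101 barcode sequences among 28689 distinct ones. All levels of genes are in CPM. A 3′ UMI tags a transcript's end, so levels were not divided by length.

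**Figure D1:**
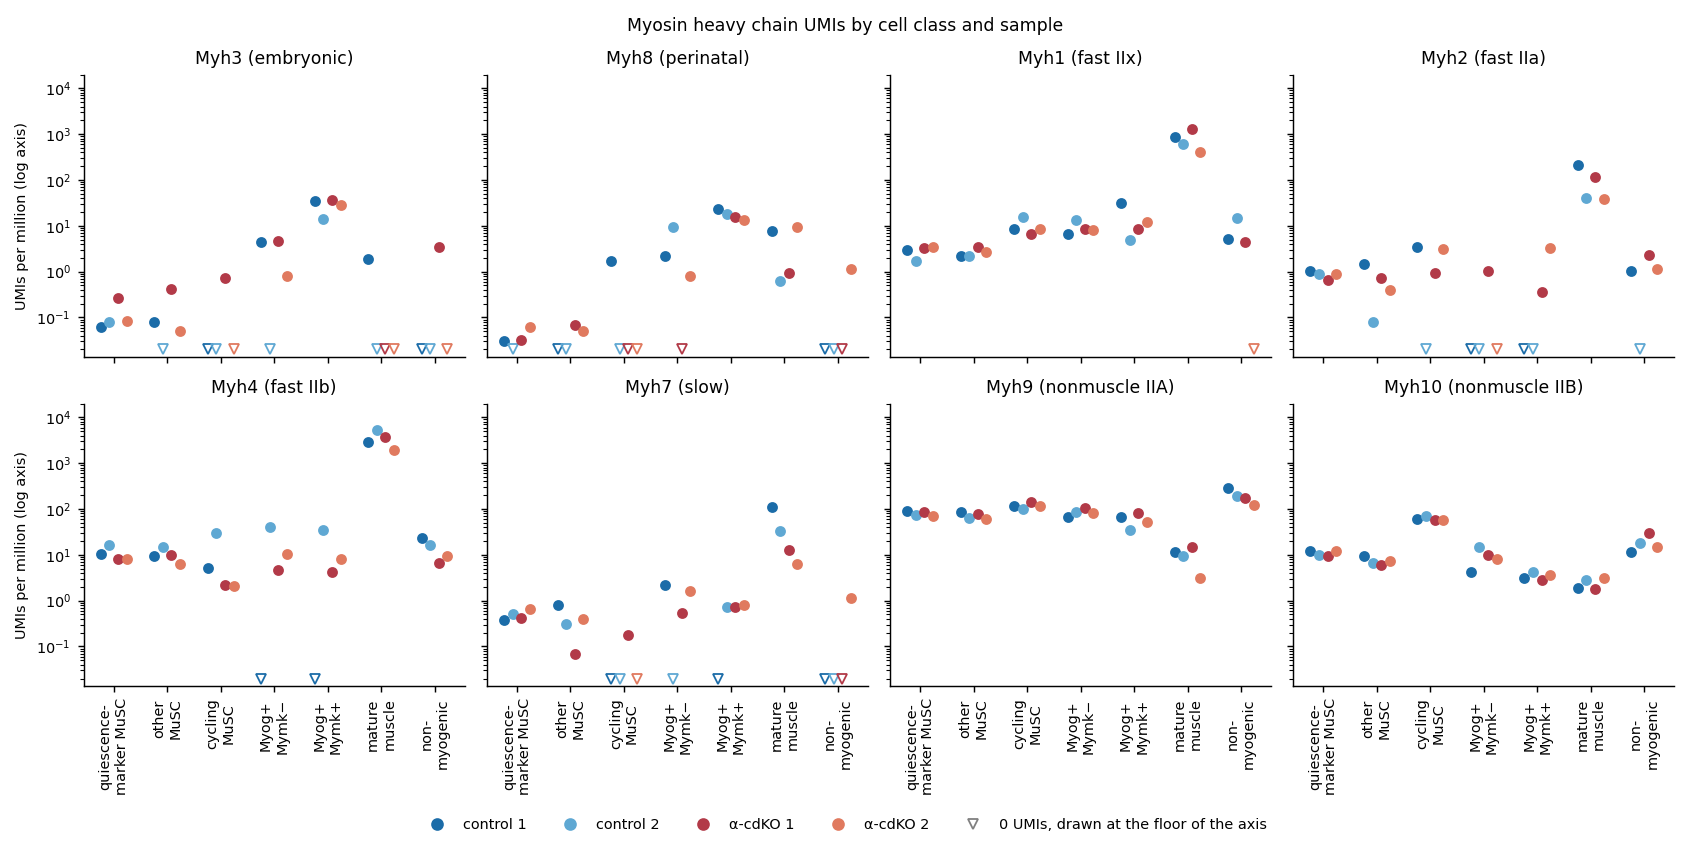
CPM of each myosin gene (log axis) in 7 cell classes, with 1 point for each of the 4 samples and open triangles for 0 UMIs. Myh3 and Myh8 stood highest in the Mymk-positive cells, the adult genes in mature-muscle barcodes, Myh10 in cycling MuSCs and, by mean, Myh9 in non-myogenic cells.

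Myh3, the embryonic chain, was 125.5 times as abundant in Myog-positive cells as in MuSCs, samples pooled, and 260.1 times without α-cdKO 1, which held 24 of the 34 Myh3 UMIs of MuSCs. It stood at 22.5 CPM in control 1, 9.34 in control 2, 23.3 in α-cdKO 1 and 19.5 in α-cdKO 2. The same samples gave 0.0661, 0.0511, 0.367 and 0.0719 CPM in MuSCs. Every Myog-positive sum lay above every MuSC sum. The difference was 6.83 ± 0.36 on the log2 scale (SE, n = 4 samples; edgeR quasi-likelihood test with Benjamini-Hochberg adjustment, adjusted p = 1.65e-11). With the same test, Myh8 differed by 7.78 ± 0.42 (adjusted p = 2.58e-11). Myh8, the perinatal chain, stood at 14.4, 15.4, 9.18 and 9.36 CPM in the Myog-positive cells of control 1, control 2, α-cdKO 1 and α-cdKO 2. MuSCs of the same samples held only 2, 0, 3 and 4 Myh8 UMIs. Again the classes did not overlap. Across all genes tested, 25.4% were higher and 26.1% lower in Myog-positive cells. Of the 8 myosin genes, which all passed the filter in this comparison, Myh3, Myh8 and Myh1 were higher, Myh9 and Myh10 were lower, and Myh2, Myh4 and Myh7 did not pass the threshold. Scaled by total UMIs, without a TMM factor, 65.2% of the calls over all genes were higher rather than 49.3%, and the median of all genes moved from -0.04 to 0.16.

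Both developmental chains were concentrated in the cells that also held Mymk. Mymk-positive cells held 35.4, 14.2, 35.8 and 28.9 CPM of Myh3 in control 1, control 2, α-cdKO 1 and α-cdKO 2, against 4.33, 0, 4.74 and 0.798 CPM in the Mymk-negative cells. Every Mymk-positive sum was the higher, by 3.43 ± 0.38 on the log2 scale (SE, n = 4; edgeR, Benjamini-Hochberg adjusted p = 1.07e-05). Myh8 stood at 23.1, 18.5, 15.4 and 13.7 CPM against 2.17, 9.55, 0 and 0.798 CPM, a difference of 2.86 ± 0.57 (edgeR, Benjamini-Hochberg adjusted p = 0.00135). With at least 2 Myog UMIs asked of each cell, the Myh8 difference was 1.84 (adjusted p = 0.0547, edgeR; 6.27e-11 to 0.0547 over its 14 alternatives). In this comparison 17.1% of all genes tested were higher and 17.5% lower. Mymk-positive cells were also deeper, with a median of 15282 UMIs against 9419.5.

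**Figure D2:**
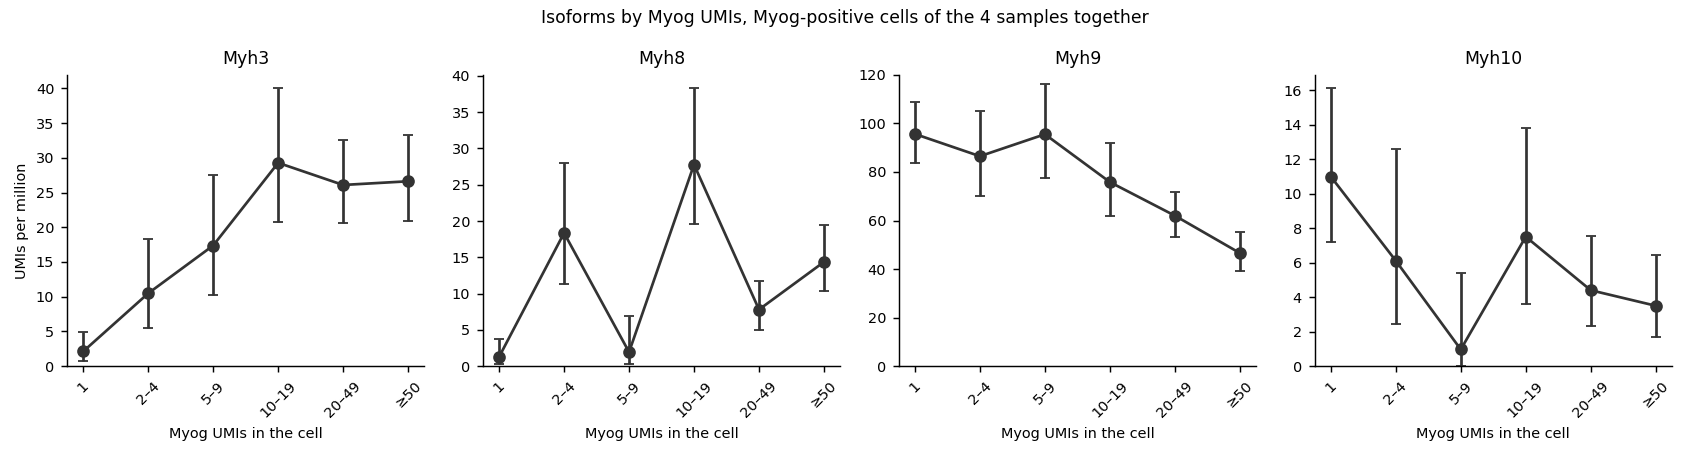
CPM of 4 myosin genes against the number of Myog UMIs in the cell (6 bins), over the Myog-positive cells of all samples together. Bars are exact Poisson 95% intervals of the pooled count and cover counting error only. Myh3 was 2.12 in cells with 1 Myog UMI and 26.6 in those with at least 50, Myh9 went from 95.7 to 46.6, and Myh8 had no steady course. Taken by sample, Myh9 was lower in the last bin than in the first except in control 1, at 53.5 and then 69.8.

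With samples pooled, Myh3 was higher in the cells with more Myog UMIs. It was 2.12 CPM over the 243 cells with a single Myog UMI, 10.5, 17.4 and 29.3 CPM in the next bins, and 26.1 and 26.6 CPM in the upper bins. Its course flattened in the upper bins, whose counting intervals overlap. Deeper cells reach the upper bins more easily. The samples differed in course. In α-cdKO 1 Myh3 stood at 4.80, 8.23, 21.5, 30.95, 33.4 and 40.5 CPM over the bins, and in α-cdKO 2 at 0, 11.8, 13.2, 39.95, 24.6 and 23.8 CPM. Control 1, with 5 to 18 cells in a bin, was highest in the second bin, at 0, 47.6, 35.5, 11.6, 29.0 and 22.1 CPM. Control 2 held no Myh3 UMI in the first 4 bins and stood at 8.93 and 20.1 CPM in the upper ones. The pooled course was thus mainly that of the α-cdKO samples, which held most of the cells. For Myh8 the pooled values had no steady direction. Myh8 gave 1.27, 18.4, 1.93, 27.8, 7.79 and 14.4 CPM over the same bins.

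The uneven course of Myh8 went with its concentration in very few cells. Its 127 UMIs in Myog-positive cells came from 45 cells, and 78 of them came from 6 cells, with 21 in a single cell. The 227 Myh3 UMIs were spread over 127 cells, with at most 10 in a cell. Both genes were detected together in 18 cells, Myh3 alone in 109, Myh8 alone in 27 and neither in 707. Median depth was 11452 UMIs in cells with neither and 19769.5 in cells with both, so the detected sets were not matched in depth. In the Myog-positive cells with under 0.5% of UMIs on the fibre list, Myh8 was 4.08, 1.62, 4.26 and 4.21 CPM, while Myh3 was 19.4, 7.55, 20.4 and 16.5 CPM. That list includes Acta1, skeletal actin, which itself stood at 1215 to 1811 CPM in Myog-positive cells, and the part of fibre transcripts in the Myh8 level was not tested. Above MuSCs of the same kind, Myh8 was still higher by 6.32 and Myh3 by 6.60 (edgeR, Benjamini-Hochberg adjusted p = 1.11e-08 and 3.19e-11; over the 15 alternatives of each gene the adjusted p reached at most 7.59e-08 and 8.46e-07).

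Detection of Myh3 was sparse even where it was highest. With each cell thinned to 2000 UMIs, 2.55% of Myog-positive cells held a Myh3 UMI (exact 95% interval 1.58 to 3.87), against 0.0154% of MuSCs. Without thinning the shares were 14.8% and 0.0947%. In non-myogenic cells it was 0 of 303 after thinning, which allows a share of up to 0.990% by the floor of 3 counts and 1.21% by the exact interval, and 3 UMIs in all without thinning. The MuSCs with Myh3 were 25 cells, with 3 in control 1, 2 in control 2, 16 in α-cdKO 1 and 4 in α-cdKO 2, and 20 of them held a single UMI.

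Adult muscle barcodes held almost none of the embryonic chain, with 1 Myh3 UMI over the 4 samples. Myh8 gave 4, 2, 1 and 3 UMIs in control 1, control 2, α-cdKO 1 and α-cdKO 2. Those few UMIs lay above the MuSC level by 6.62 ± 0.82 on the log2 scale (SE, n = 4; edgeR, Benjamini-Hochberg adjusted p = 7.08e-13), which sets 10 UMIs against 9 in a far larger class.

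The adult chains were the myosins of the mature-muscle barcodes. Myh4, the type IIb chain, stood at 2918, 5232, 3660 and 1970 CPM there, in the order control 1, control 2, α-cdKO 1 and α-cdKO 2. In MuSCs it stood at 10.2, 16.5, 8.51 and 7.56 CPM. Myh1, the type IIx chain, stood at 865, 613, 1315 and 398 CPM in the barcodes and at 2.78, 2.32, 3.58 and 3.36 CPM in MuSCs. Myh2, the type IIa chain, stood at 213, 41.2, 118 and 37.6 CPM in the barcodes. Myh7, the slow chain, gave the fewest UMIs of the adult chains, at 108, 33.7, 12.9 and 6.26 CPM. No mature-muscle sum of these genes overlapped the MuSC sums. The order Myh4, Myh1, Myh2 held in each sample, and Myh7 lay below Myh2 in each.

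On the log2 scale the adult chains were 8.41 ± 0.15 (Myh4), 8.05 ± 0.19 (Myh1), 6.93 ± 0.24 (Myh2) and 6.40 ± 0.34 (Myh7) above MuSCs (SE, n = 4). The edgeR quasi-likelihood test gave Benjamini-Hochberg adjusted p values from 2.18e-104 for Myh4 to 8.42e-42 for Myh7. Over all genes tested, 26.1% were higher and 49.2% lower in mature-muscle barcodes, with a median of -0.86. Of the 7 myosin genes tested here, Myh8 and the adult chains were higher, and Myh9 and Myh10 were lower. Barcodes with under 0.5% mitochondrial UMIs gave 3677, 5460, 3929 and 1961 CPM of Myh4.

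**Figure D3:**
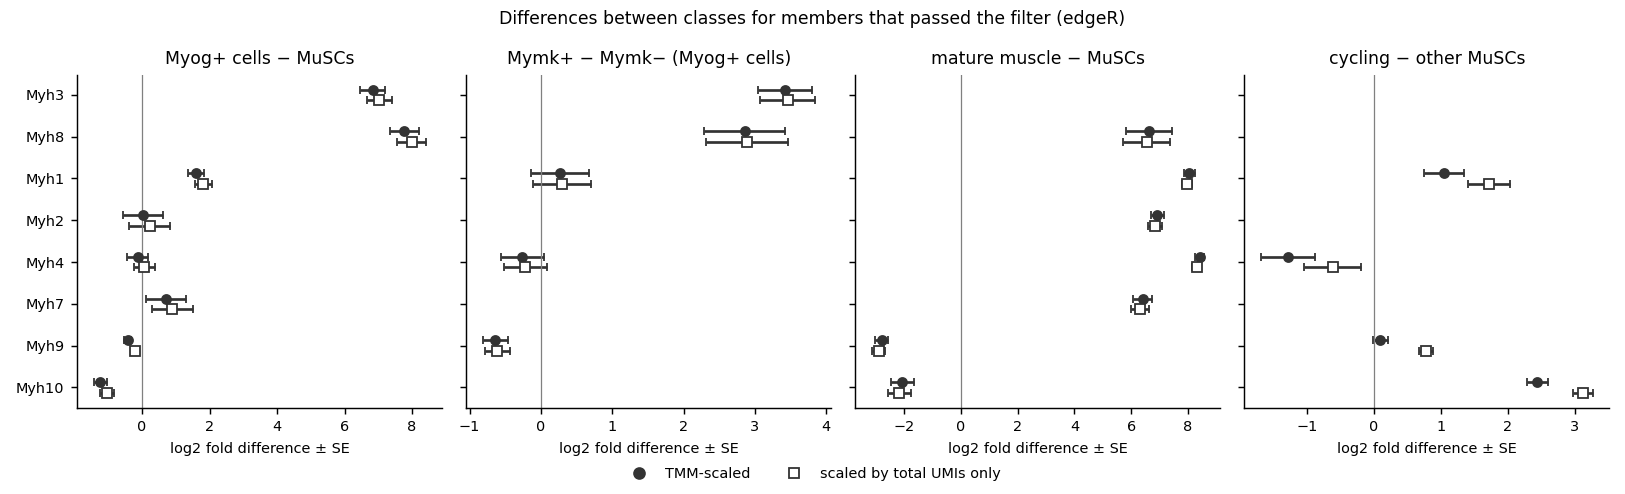
Log2 differences ± SE between classes (n = 4 samples, edgeR) for the myosin genes that passed the filter, with TMM scaling (filled circles) and with scaling by total UMIs only (open squares). Both scalings put Myh3, Myh8 and Myh1 higher and Myh10 lower in Myog-positive cells, while Myh9 moved from 0.09 to 0.77 in cycling MuSCs.

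Below the fibre, the fast transcripts stood at low levels in every class. Myh4 was 23.6, 16.5, 6.76 and 9.34 CPM in non-myogenic cells, a range that held all its MuSC values. In MuSCs, Ckm (muscle creatine kinase) gave 40.2, 43.9, 37.5 and 39.6 UMIs per 100 of Acta1. The mature-muscle barcodes of the same samples gave 34.7, 46.5, 39.1 and 36.1, and the Myog-positive cells 1.78, 9.41, 4.05 and 2.27. Myh4 per 100 Ckm UMIs was 38.4, 21.2, 19.03 and 22.1 in MuSCs and 18.7, 24.7, 18.96 and 9.91 in the barcodes. The ratio of Ckm to Acta1 in MuSCs lay within the range of the fibre barcodes. Myh4 per Ckm was higher in MuSCs than in the barcodes of control 1 and α-cdKO 2. It was nearly equal in α-cdKO 1 and lower in control 2. The part of fibre RNA carried into other droplets in the MuSC level of Myh4 was not tested. In Myog-positive cells Myh4 was 0, 36.9, 4.48 and 8.82 CPM, a difference of -0.13 ± 0.32 from MuSCs that did not pass (edgeR, Benjamini-Hochberg adjusted p = 0.761). Over its 15 alternatives that difference ran from -0.91 to 0.23, and 1 of them called Myh4 lower.

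Myh1 was the only adult chain called higher in Myog-positive cells, apart from Myh7 when the mature-muscle threshold was set at 2 times its value (2.49 on the log2 scale). It stood at 20.7, 7.94, 8.54 and 10.7 CPM in Myog-positive cells, above its level in every MuSC sum, by 1.61 ± 0.24 on the log2 scale (SE, n = 4; edgeR, Benjamini-Hochberg adjusted p = 1.28e-05). In the cells with little fibre RNA it stood at 9.19, 5.39, 8.04 and 8.72 CPM against 2.58, 1.71, 3.14 and 2.86 CPM in MuSCs. Per 100 Ckm UMIs it gave 95.8, 4.99, 14.7 and 26.0 in Myog-positive cells and 10.5, 2.99, 8.01 and 9.83 in MuSCs. The ratio was higher in the Myog-positive cells of each sample. In all samples but control 1 its level lay within the 0 to 14.7 CPM of non-myogenic cells, which rest on 17 UMIs in all. Mymk-positive and Mymk-negative cells did not differ detectably in Myh1 (0.27 ± 0.41; edgeR, Benjamini-Hochberg adjusted p = 0.655).

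Within the fibre barcodes, most UMIs of the adult chains belonged to Myh4. It made up 71.1% in control 1, 88.4% in control 2, 71.7% in α-cdKO 1 and 81.7% in α-cdKO 2. Myh1 made up 21.1, 10.4, 25.8 and 16.5%, Myh2 5.18, 0.697, 2.31 and 1.56%, and Myh7 2.64, 0.569, 0.252 and 0.260%. For Myh4, the controls differed from each other by more than the genotype means did. The Myh1 share of control 1 rested in part on its barcodes with at least 0.5% mitochondrial UMIs, where Myh1 made up 62.3% and Myh4 18.8% of 207 adult myosin UMIs.

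Single barcodes mostly carried a single adult isoform. Of the 1209 barcodes, 650 held at least 10 UMIs of Myh1, Myh2, Myh4 and Myh7, and 477 of these held 1 isoform only. Myh4 made up at least 80% in 479 barcodes, or 73.7% (exact 95% interval 70.1 to 77.0, counting error only). Myh1 led in 94, Myh2 in 6 and Myh7 in 6, and 65 were mixed. The leading gene stood at 9025 CPM in barcodes led by Myh4, 3994 by Myh1, 1800 by Myh2 and 1471 by Myh7. Median depth in the same order was 3374, 4703.5, 8683.5 and 9226.5 UMIs. The threshold of 10 UMIs thus bears on these shares, which do not measure the make-up of fibre types. The mixed barcodes paired neighbours in the type order, with Myh1 and Myh4 in 52 and Myh1 and Myh2 in 13.

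**Figure D4:**
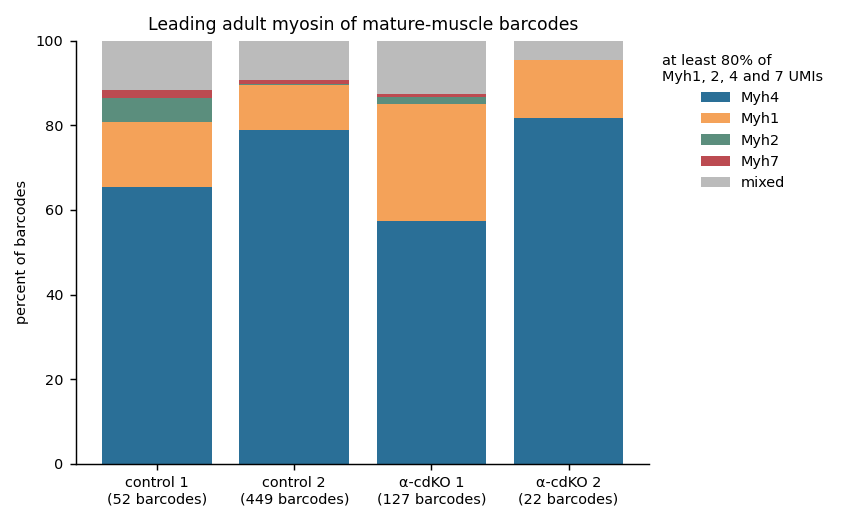
Percent of mature-muscle barcodes led by each adult myosin, in the 4 samples, among barcodes with at least 10 adult myosin UMIs. Myh4-led barcodes were 34 of 52 in control 1, 354 of 449 in control 2, 73 of 127 in α-cdKO 1 and 18 of 22 in α-cdKO 2.

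Several of the partner genes looked at followed the leading myosin. Others, such as Tnni2, differed little among barcodes led by a fast chain, at 19250 (Myh2-led), 22960 (Myh1-led) and 24260 CPM (Myh4-led). Myl2, the slow regulatory light chain, stood at 29650 CPM in Myh7-led barcodes, 405 in Myh2-led, 0 in Myh1-led and 3.95 in Myh4-led ones. Tnnc1, the slow troponin C, stood at 19520, 27.9, 0 and 2.64 CPM in the same order. Mb, the oxygen store myoglobin, stood at 11440, 8384, 7420 and 827 CPM. Pvalb, the calcium buffer parvalbumin of fast fibres, ran the other way, at 47.4, 391, 5165 and 12980 CPM. Actn3, the fast fibre actinin, stood at 0, 41.9, 1835 and 4889 CPM. Only 6 barcodes stood behind each of the Myh2-led and Myh7-led values. Mb, Pvalb, Actn3, Tnnt3, Tnni2 and Atp2a1 are on the list that chose the barcodes. For Mb and Pvalb, the contrast of Myh1-led and Myh4-led barcodes was seen in all samples. Myh1-led barcodes were few in some, with 8 in control 1, 48 in control 2, 35 in α-cdKO 1 and 3 in α-cdKO 2. Mb was 6604, 8305, 6306 and 6327 CPM in Myh1-led and 867, 958, 373 and 340 CPM in Myh4-led barcodes, in the order control 1, control 2, α-cdKO 1 and α-cdKO 2. Pvalb was 4348, 5176, 5574 and 4505 against 14120, 13550, 11170 and 9524 CPM. Neither gene's ranges overlapped between the barcode groups. Atp2a1 changed direction between samples. It stood at 2210 CPM in Myh1-led against 2510 in Myh4-led barcodes of control 2, and at 3259 against 2177 CPM in α-cdKO 2.

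**Figure D5:**
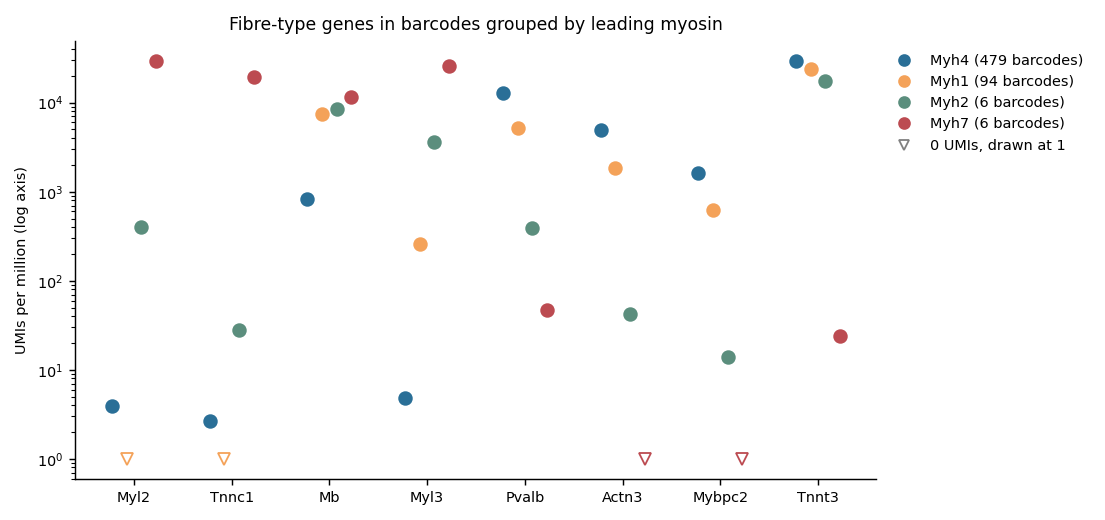
CPM (log axis) of 8 fibre-type genes in mature-muscle barcodes grouped by their leading myosin, samples summed, with open triangles for 0 UMIs drawn at 1. Myl2, Tnnc1 and Myl3 were highest in Myh7-led barcodes, and Pvalb, Actn3 and Mybpc2 in Myh4-led ones.

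Slow myosin rested on very few barcodes. The 180 Myh7 UMIs of the mature class came from 26 barcodes, and 124 of them came from the 6 barcodes that Myh7 led, with 42 in a single barcode of control 1. Its UMIs per sample were 57, 107, 14 and 2. MuSCs held 22, 17, 16 and 40 Myh7 UMIs.

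Noncoding genes of the same cluster were seen in the fibre class too. 2310065F04Rik, at 11:67112461-67120080 on the minus strand between Myh3 and Myh2, stood at 148, 282, 166 and 175 CPM in the mature-muscle barcodes. It was higher than in MuSCs by 9.14 on the log2 scale, and Myhas, which lies antisense to Myh1 at 11:67211256-67237573, by 8.13. Myhas stood at 32.3, 67.4, 12.9 and 34.5 CPM. 9430073C21Rik, which overlaps Myh2 on the other strand at 11:67195680-67199234, stood at 9.49, 17.0, 55.2 and 43.9 CPM and was higher by 5.07. All passed the edgeR test in this comparison (Benjamini-Hochberg adjusted p at most 4.78e-34). Whether counting used strand is not stated in the sources used here, so the overlapping pairs cannot be told apart with certainty.

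Of the 8 genes, the nonmuscle chain Myh9 stood highest in MuSCs. Myh10 came next except in control 2, where Myh4 stood above it at 16.5 CPM. Myh9 stood at 89.6, 72.4, 87.0 and 69.4 CPM in the MuSCs of control 1, control 2, α-cdKO 1 and α-cdKO 2, and Myh10 at 12.1, 10.9, 12.0 and 11.9 CPM. Myh9 made up 88.1, 86.9, 87.9 and 85.3% of the UMIs of the pair. Both were higher in each non-myogenic sum than in the mature-muscle sums. Non-myogenic cells held 290, 189, 178 and 124 CPM of Myh9, all above the MuSC sums. Mature-muscle barcodes held 11.4, 9.45, 14.7 and 3.13 CPM, and those with under 0.5% mitochondrial UMIs held only 1, 2, 1 and 0 UMIs. Against MuSCs, Myh9 fell by 2.80 and Myh10 by 2.07 in mature-muscle barcodes (SE 0.23 and 0.40, n = 4; edgeR, Benjamini-Hochberg adjusted p = 5.17e-23 and 1.75e-06).

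Myh10 was lower in Myog-positive cells than in MuSCs as a whole. Myog-positive cells held 3.60, 7.94, 5.76 and 5.08 CPM, below every MuSC sum, with a difference of -1.23 ± 0.20 on the log2 scale (SE, n = 4; edgeR, Benjamini-Hochberg adjusted p = 3.81e-05). It was lower still in Mymk-positive cells, at 3.08, 4.26, 2.87 and 3.62 CPM, against 4.33, 15.01, 10.0 and 7.98 CPM in Mymk-negative cells. That difference was not tested, since Myh10 did not pass the filter there. The MuSC sums include cycling MuSCs, which held 560 of the 2591 Myh10 UMIs of MuSCs. Quiescence-marker MuSCs, at 9.45 to 12.3 CPM, lay above every Myog-positive sum. MuSCs in neither class held 9.40, 6.66, 5.87 and 7.47 CPM. Against these, Myog-positive cells were lower in control 1 and α-cdKO 2, nearly level in α-cdKO 1 and higher in control 2. This last comparison was not tested.

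Myh9 changed less. It stood at 66.5, 52.8, 90.04 and 62.0 CPM in Myog-positive cells, a range that overlapped that of MuSCs. The difference was -0.42 ± 0.10 with TMM scaling (edgeR, Benjamini-Hochberg adjusted p = 0.00227) and -0.21 (adjusted p = 0.0792) when scaled by total UMIs. Over its 15 alternatives the adjusted p ran from 6.20e-06 to 0.0792. Within the Myog-positive cells, Mymk-positive cells held 66.1, 34.8, 79.9 and 51.9 CPM against 67.1, 87.3, 105 and 82.2 CPM in Mymk-negative cells. Each sample was lower, by 0.64 ± 0.17 on the log2 scale (edgeR, Benjamini-Hochberg adjusted p = 0.0111), and the call was lost when cells needed at least 2 Myog UMIs (adjusted p = 0.0663, edgeR; range over 15 alternatives 0.00448 to 0.0663).

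Cycling MuSCs stood apart in Myh10. The class, defined by at least 3 of 12 cell cycle genes, held 31 cells in control 1, 74 in control 2, 357 in α-cdKO 1 and 108 in α-cdKO 2. Myh10 stood at 59.3, 70.1, 58.9 and 57.4 CPM in them, against 9.40, 6.66, 5.87 and 7.47 CPM in the other MuSCs that were neither cycling nor marked as quiescent. The difference of 2.44 ± 0.15 on the log2 scale passed the test (n = 4; edgeR, Benjamini-Hochberg adjusted p = 6.17e-09). It corresponded to 8.57 times the pooled level. This comparison was added after the levels had been seen. Over all genes tested, 32.0% were higher and 31.4% lower in cycling cells. Scaled by total UMIs, 84.0% of the calls were higher rather than 50.5%, the median of all genes moved from 0.01 to 0.68, and Myh10 differed by 3.12.

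Myh9 in cycling MuSCs depended on the scaling. At 117, 99.3, 144 and 117 CPM every cycling sum lay above the 86.2, 63.6, 76.4 and 60.7 CPM of the other MuSCs. It differed by 0.09 ± 0.11 with TMM scaling (edgeR, Benjamini-Hochberg adjusted p = 0.482) and by 0.77 with total UMIs (adjusted p = 1.55e-05; range over 15 alternatives 1.55e-05 to 0.969). Cycling MuSCs were deeper, with a median of 16085.5 UMIs against 6355. Myh1 was also higher in cycling cells, at 8.47, 15.4, 6.73 and 8.35 CPM (1.04 ± 0.30; edgeR, Benjamini-Hochberg adjusted p = 0.00747). That call was lost without control 2 (0.70, adjusted p = 0.0652), and its adjusted p ran from 0.00025 to 0.0988 over 15 alternatives. Myh4 was lower by 1.29 ± 0.40 (adjusted p = 0.0125, edgeR), a call lost without α-cdKO 1 (adjusted p = 0.202) and when scaled by total UMIs (adjusted p = 0.213), within a range of 1.59e-08 to 0.954 over 15 alternatives.

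MuSCs with quiescence markers held slightly more Myh10 than the other MuSCs. They held 12.3, 10.0, 9.45 and 12.0 CPM, higher in each sample, by 0.39 ± 0.09 on the log2 scale (edgeR, Benjamini-Hochberg adjusted p = 0.000987). Without the sample as a block the adjusted p was 0.114 (range over 15 alternatives 3.21e-05 to 0.114). Myh9 was 90.4, 75.4, 86.9 and 71.1 CPM and did not pass (-0.02 ± 0.05, adjusted p = 0.813), but differed by 0.18 (adjusted p = 0.00289, edgeR; range to 0.995) under total UMIs. There 82.2% of all calls were higher rather than 47.9%, and the median of all genes was 0.22 rather than 0.03. With TMM scaling, 22.3% of the genes tested were higher and 24.2% lower. Of the 6 myosin genes tested, Myh10 alone passed. Myh4 differed by -0.12 ± 0.10 and was called lower in 3 of its 15 alternatives, over a range of -0.43 to 0.07.

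The genes that serve the heavy chains differed in course in Myog-positive cells, where 25.4% of all genes tested were higher and 26.1% lower than in MuSCs. Several of the counts of called members lie near those shares. Among myosin light chain kinases and phosphatase subunits, 1 of 7 rose and 3 fell. Mylk4, a kinase for myosin light chains, was the one that rose, from 0.759 CPM in MuSCs to 146 CPM (7.38 on the log2 scale). Among the folding chaperones 2 of 5 rose and 3 fell. Unc45b, the striated muscle myosin chaperone, rose by 3.45, from 1.54 to 20.2 ± 17.6 CPM (SD, n = 4), and its general relative Unc45a fell by 0.57. In non-myogenic cells Unc45b averaged higher, at 44.0 ± 18.25 CPM. Among sarcomeric light chains 3 of the 5 tested rose and 1 fell. Myl1, the fast essential light chain, rose by 1.76, from 44.1 to 163 CPM, and Mylpf, the fast regulatory light chain, differed by -0.09 and did not pass. In the nonmuscle light chains 2 of 5 rose and 1 fell, with Myl6 lower by 0.41. Of 12 myosin regulators tested, 10 rose and 2 fell, among them Mef2a by 0.50 and Nfix by 0.42. The medians over the tested members were -0.52 for kinases and phosphatases, -0.38 for chaperones, 0.81 for sarcomeric light chains, -0.07 for nonmuscle light chains and 0.77 for regulators, beside -0.04 for all genes. Myog is on the regulator list and set the class. Myh14, the remaining nonmuscle heavy chain, rose by 1.11, from 6.53 to 15.3 CPM.

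In mature-muscle barcodes, where 26.1% of all genes tested were higher and 49.2% lower than in MuSCs, some lists moved one way and others did not. All 5 sarcomeric light chains tested and all 5 myosin-binding proteins tested rose, with medians of 8.03 and 8.06. All 4 nonmuscle light chains tested fell, with a median of -1.94, while all genes had a median of -0.86. Kinases and phosphatases gave 3 higher and 4 lower of 7 (median -2.26), chaperones 2 higher and 3 lower of 5 (median -2.27) and regulators 6 higher and 3 lower of 12 (median 0.41). Mylpf, which is on the list that chose the barcodes, rose by 9.37, and Mybpc2, fast myosin-binding protein C, by 8.51. Myl6 fell by 1.50 and Rock1, a kinase upstream of nonmuscle myosin, by 3.16.

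Genotype was compared over 2 control and 2 α-cdKO samples, and no myosin gene passed in any class. Over all genes tested, edgeR called 0.215% in MuSCs, 0.0106% in Myog-positive cells and 0.211% in mature-muscle barcodes, so few genes of any kind were called with these samples. DESeq2 called no myosin gene either. Before adjustment, 1 myosin gene in each class had an edgeR p under 0.05: Myh4 in MuSCs, Myh8 in Myog-positive cells and Myh7 in mature-muscle barcodes. Such a p was held by 1105 of the 14451 genes tested in MuSCs, 431 of 9410 in Myog-positive cells and 292 of 4747 in mature-muscle barcodes. In MuSCs Myh9 averaged 81.0 ± 12.2 CPM in controls and 78.2 ± 12.4 in α-cdKO (SD, n = 2 each), a log2 difference of -0.05 ± 0.16 (edgeR, Benjamini-Hochberg adjusted p = 0.950). Myh10 averaged 11.5 ± 0.827 and 12.0 ± 0.0495 CPM, a difference of 0.06 ± 0.14 (adjusted p = 0.934, edgeR). For these abundant genes the standard errors bound the difference more closely than for the rest. Myh3 and Myh8 did not pass the filter in MuSCs, where α-cdKO 1 alone held 24 of the 34 Myh3 UMIs.

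In Myog-positive cells Myh3 averaged 15.9 ± 9.28 CPM in controls and 21.4 ± 2.65 in α-cdKO (SD, n = 2 each), with the sample ranges overlapping. The difference was 0.56 ± 0.37 (edgeR, Benjamini-Hochberg adjusted p = 0.970). Myh8 averaged 14.9 ± 0.728 and 9.27 ± 0.127 CPM, without overlap, and differed by -0.68 ± 0.29 (adjusted p = 0.970, edgeR). In the cells with little fibre RNA the Myh8 difference was 0.73 and so had the other sign (adjusted p = 0.987, edgeR; range 0.721 to 1.0 over 15 alternatives). Myh9 differed by 0.39 ± 0.23. The interaction of class and genotype, which asks whether the step from MuSC to Myog-positive cell differed, gave -1.23 ± 0.83 for Myh3, -1.66 ± 1.25 for Myh8 and 0.44 ± 0.19 for Myh9. None of the 8 genes passed it by edgeR or DESeq2, and 0.151% of all genes did. Without control 1, Myh4 passed it at -1.40 (edgeR, Benjamini-Hochberg adjusted p = 0.00821), and without control 2 at 10.86 (adjusted p = 0.0115), with the opposite sign (range over 14 alternatives 0.00821 to 1.0). Control 1 held 0 Myh4 UMIs in Myog-positive cells, so the latter value depends on the prior count. Before adjustment, 2 of the genes, Myh2 and Myh9, had an edgeR interaction p under 0.05, as did 812 of the 13868 genes tested. Myh2 gave 8.17 ± 3.58. Each control held 0 Myh2 UMIs in Myog-positive cells, so that value too depends on the prior count.

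In mature-muscle barcodes Myh7 had the widest genotype difference of the myosin genes, -2.40 ± 0.61 on the log2 scale (edgeR, Benjamini-Hochberg adjusted p = 0.246). It was called without control 2 (-3.17, adjusted p = 0.00918), without α-cdKO 2 (-2.19, adjusted p = 0.000135) and with no filter (-2.42). With the replicate number as a block it was called at -2.87 (adjusted p = 0.00374, edgeR; range over 13 alternatives 4.41e-06 to 0.974). Of its 180 UMIs, 124 came from Myh7-led barcodes, of which there were 1 in control 1, 4 in control 2, 1 in α-cdKO 1 and 0 in α-cdKO 2. Myh4 differed by -0.46 ± 0.28 (adjusted p = 0.892, edgeR) and was called without control 1 (-0.84, adjusted p = 0.00065; highest over 13 alternatives 1.0). Myh1 differed by 0.31 ± 0.37 and was called without α-cdKO 2 (0.89, adjusted p = 0.00659, edgeR; highest 1.0). Myh4 in Myog-positive cells, at -1.67 ± 0.91, was called without α-cdKO 2 (-2.20, adjusted p = 0.0402) and with no filter (-1.64, adjusted p = 0.00169, edgeR; highest 1.0). The call of Myh7 with the block kept all 4 samples and the filter. Each of the other calls came from a fit that left out a sample or applied no filter. For Myh4 in Myog-positive cells, control 1 held 0 UMIs and control 2 held 79, of which 41 lay in a single cell.

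The shares of the isoforms were compared by two-sided exact permutation tests over samples, where 2 against 2 allows no p below 0.3333. Myogenic cells with a Myh3 UMI, thinned to 2000 UMIs, were 0.0572 and 0.0457% in controls and 0.173 and 0.0502% in α-cdKO (difference 0.0599 percentage points, exact permutation p = 0.6667). Myh4 made up 73.0 and 88.9% of the fast myosin UMIs of mature-muscle barcodes in controls and 71.9 and 81.9% in α-cdKO (difference -4.07 points, exact permutation p = 0.6667). The Myh9 share of the nonmuscle pair differed by -0.888 points (exact permutation p = 0.6667). At these settings the samples of the genotypes overlapped for each share. For Myh3 they did not overlap under 3 others, each with a difference at the smallest p the design allows (exact permutation p = 0.3333). Thinned to 4000 UMIs the shares were 0.0825 and 0.0713% in controls and 0.334 and 0.170% in α-cdKO (difference 0.176 points). Without thinning they were 0.284 and 0.375% against 0.859 and 0.486% (difference 0.343 points). In cells with under 0.5% of UMIs on the fibre list they were 0.0383 and 0.0463% against 0.130 and 0.0505% (difference 0.0482 points). These shares run over MuSCs and Myog-positive cells together. Myog-positive cells were 1.24 and 2.93% of kept cells in controls and 4.08 and 2.90% in α-cdKO. Within Myog-positive cells alone, unthinned, 17.65 and 9.55% held a Myh3 UMI in controls and 16.3 and 14.8% in α-cdKO, with overlap.

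The genes with the most similar course were sought over 28 sums, 7 classes in each of the 4 samples, among 7280 genes. Pearson correlations of log2(CPM + 5) describe likeness over sums that share libraries and depth. Closest to Myh3 were Mymk (0.929), 2310043L19Rik (0.921), Gpr50 (0.916), Tfrc (0.910) and Bcat1 (0.909). Mymk itself set 2 of the classes. Closest to Myh8 were Ppargc1a (0.897), Map2k2 (0.884), Homer2 (0.875), Tnnt2 (0.872) and Svbp (0.861). Closest to Myh4 were Mybpc2 (0.984), Myoz1 (0.983), Eef1a2 (0.981), Pgam2 (0.980) and Tcap (0.98), of which Myoz1, Pgam2 and Tcap are on the fibre list. Closest to Myh9 were Gnai2 (0.971), Sptbn1 (0.964), Cd2ap (0.961), Wwc2 (0.960) and Tcf4 (0.958).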

How the data were processed

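Single-cell libraries (10x Genomics 3′ v3) were made from 4 samples, each a pool of 2 mice. Per the file headers, the authors deposited raw counts of UMIs per gene and barcode from Cell Ranger 7.1.0; the genome build was given as the GRCm38 reference, and whether intronic or antisense reads were counted is not given in the sources used here. Barcodes were kept (28790 of 31254) with 1000 UMIs or more, 400 genes or more and a mitochondrial share below 15%. The myosin genes and all gene lists were chosen with earlier results of these data known, and class thresholds were set after the marker distributions had been seen. Classes came from gates on marker UMIs in place of a clustering: non-myogenic (at least 3 endothelial, immune or glial genes, or at least 5 mural or fibro-adipogenic genes), mature-muscle (at least 5% of UMIs on 16 fibre genes), Myog-positive, and MuSCs, split by at least 3 cycling or quiescence genes. Myh11 was among the mural markers. Doublets were not removed except in an alternative that left out the highest Scrublet scores of scanpy 1.11.5.

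For each sample, the UMIs of a class were added up and tested in edgeR 4.0.16 (quasi-likelihood, filterByExpr, TMM, Benjamini-Hochberg over all genes tested, adjusted p under 0.05), with the sample as a block between classes and none between genotypes. Shares were compared by exact permutation tests, cells being thinned to 2000 UMIs, and intervals are exact (Clopper-Pearson or Poisson) at 95% and cover counting error only, as does the floor of 3 counts. Named genes were the 8 myosins, up to 4 members with the most UMIs of each list, and the 5 genes most correlated with Myh3, Myh8, Myh4 and Myh9. Partner, noncoding and cycling comparisons were added after the data had been seen. The edgeR steps were tested on simulated data. Alternatives were DESeq2 1.42.0, its size factors, scaling by total UMIs, no filter, other cuts and depths, doublet removal, replicate blocks and leaving out each sample. R 4.3.3, Python 3.11.15, numpy 2.4.6, pandas 2.3.3, scipy 1.17.1 and matplotlib 3.10.9 were used.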

Additional observations from a re-analysis of the deposited data

How the results depend on the processing

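The higher Myh3, Myh8 and Myh1 and the lower Myh10 in Myog-positive cells, and the adult chains in mature-muscle barcodes, kept direction and call under every alternative run for them. The numbers of genes called between genotypes did not: MuSCs gave 31, but 120 with DESeq2, 9 with the replicate block, and 19 to 104 when a sample was left out (104 without control 2 and 103 without α-cdKO 2). Myog-positive cells gave 1, but 104 with no filter, 9 with DESeq2, 24 with the mature-muscle threshold at 2 times its value, 5 with the block and 2 to 66 with a sample left out. Mature-muscle barcodes gave 10, but 87 with no filter, 5 at 2 times the threshold, 2 without the top doublet scores and 12 to 95 with a sample left out. At an unadjusted p under 0.05 the counts were 1105, 431 and 292. The interaction gave 21, but 81 with no filter, 2 with DESeq2, 47 at 2 times the threshold, 10 with at least 2000 UMIs per cell, 39 without doublet scores, 75 with at least 2 Myog UMIs, and 31 to 121 with a sample left out. Between classes, Mymk gave 2526 and 1211 with at least 2 Myog UMIs, quiescence 5977 and 2093 with no replicate block, and cycling 7149 and 2493 in cells of 5000 to 10000 UMIs. Fewer cells or samples entered where samples, cells or depth were cut; otherwise the cause was not tested. Replicate numbers did not pair the samples, as same-numbered samples deviated with correlations of -0.206, -0.061 and -0.0612 in MuSCs, Myog-positive cells and mature-muscle barcodes. Crossing the numbers in MuSCs, an alternative added after seeing the data, gave 249 calls. Among the myosins the replicate block between genotypes changed only the Myh7 call in mature-muscle barcodes. Between classes, the calls of Myh9 by Mymk, Myh10 by quiescence and Myh4 in cycling cells were lost without the sample block.

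Signs changed mostly in differences that were never called. Leaving out a sample gave genotype differences in MuSCs of -0.63 to 0.37 for Myh2, -0.94 to 0.35 for Myh7, -0.20 to 0.12 for Myh9 and -0.020 to 0.14 for Myh10. In Myog-positive cells the ranges were -0.019 to 1.19 for Myh3, -1.06 to 0.27 for Myh1, -2.49 to 7.40 for Myh4 and -0.55 to 0.64 for Myh10. In mature-muscle barcodes they were -0.75 to 0.89 for Myh1, -1.43 to 1.10 for Myh2 and -0.93 to 0.064 for Myh4. For the interaction they were -1.89 to 0.092 for Myh3, -1.40 to 10.86 for Myh4 and -0.59 to 0.73 for Myh10. Against MuSCs, Myog-positive cells gave -1.24 to 0.31 for Myh2 and -0.78 to 0.23 for Myh4, and by Mymk Myh1 gave -0.15 to 0.65. By quiescence the ranges were -0.16 to 0.0064 for Myh1, -0.10 to 0.62 for Myh2, -0.19 to 0.028 for Myh4, -0.089 to 0.96 for Myh7 and -0.039 to 0.028 for Myh9. The genotype differences in shares ran from -0.00128 to 0.121 points for Myh3, -12.0 to 3.86 for Myh4 and -2.16 to 0.380 for Myh9. The Myh3 share differed by 0.0599 points as reported, 0.176 thinned to 4000 UMIs and 0.343 without thinning, both without overlap of the genotypes. Averaged over single cells or barcodes, the Myh9 share differed by -2.92 and the Myh4 share by -7.36 points.

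With little fibre RNA the genotype differences in Myog-positive cells were 0.73 for Myh8, 0.29 for Myh1 and 0.084 for Myh4, the Myh4 interaction was 0.79, and Myh2 against MuSCs was -0.46. At 2 times the mature-muscle threshold, Myh1 between genotypes in MuSCs was -0.011, Myh2 and Myh4 in Myog-positive cells -0.27 and 0.014, Myh1, Myh2 and Myh7 by quiescence 0.22, -0.061 and -0.68, and the Myh7 interaction -2.70. Total UMIs gave 0.071 for Myh4 in Myog-positive cells, and 0.12, 0.072 and 0.18 for Myh1, Myh4 and Myh9 by quiescence. No filter gave -0.041 for Myh2 in Myog-positive cells, 0.00063 for Myh9 by quiescence and -0.0064 for Myh9 in cycling cells. DESeq2 gave -0.50 for Myh2 in Myog-positive cells and 1.30 for the Myh4 interaction. With no replicate block, Myh2 and Myh4 in Myog-positive cells were -0.020 and 0.029, and without doublet scores Myh4 was 0.026.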

Other observations

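Other heavy chains stood low in the myogenic classes. Myh11, the smooth muscle chain, averaged 57.4 ± 59.9 CPM in non-myogenic cells (SD, n = 4), where it was among the mural markers, and 1.26 ± 1.50 CPM in MuSCs. Myh13, the extraocular chain, gave 15 UMIs and Myh7b gave 10 UMIs over all kept cells. Myh14, the remaining nonmuscle chain, averaged 6.53 ± 1.71 CPM in MuSCs, 11.8 ± 2.02 in cycling MuSCs and 15.3 ± 3.12 in Myog-positive cells. 9430073C21Rik, which overlaps Myh2, was higher in Myog-positive cells than in MuSCs by 1.29 on the log2 scale (edgeR, Benjamini-Hochberg adjusted p = 0.00804), where Myh2 itself differed by 0.03 and did not pass.

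Barcodes that failed the cell filters also held myosin UMIs. The 369, 965, 863 and 267 barcodes left out of control 1, control 2, α-cdKO 1 and α-cdKO 2 held 98, 1112, 328 and 50 Myh4 UMIs, and 39, 205, 78 and 21 of these barcodes were past the mature-muscle threshold. They held 46, 124, 147 and 37 Myh9 UMIs and 0, 1, 2 and 0 Myh3 UMIs. Among kept barcodes, 47 of the mature-muscle class also held a Myog UMI, and 50 barcodes lay between 2.5% and 5% of UMIs on the fibre genes.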
